A study of Homo sapiens with 4 samples.

Results

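The olfactory receptor genes of human chromosome 11 were described here by the methylation of their CpGs in 4 whole-genome bisulfite libraries. Members were the protein-coding genes of chromosome 11 in GENCODE 44 (hg38) whose symbol is OR, digits, letters and digits, and 172 of the 19970 protein-coding genes of chromosomes 1 to 22 and X met this rule. A gene's region was its annotated body with 2 kb on either side, and CpGs between 5.2 and 5.31 Mb of the chromosome were left out. Of the 172 members, 155 had at least 5 CpGs listed in all 4 libraries and were tested. The smallest number of shared CpGs in a tested member was 13, the median was 37 and the largest was 1130.

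Olfactory receptors are G protein-coupled receptors of the nose that detect odorants. An olfactory sensory neuron is known to express 1 allele of a single receptor gene, and in most other cell types these genes are silent. Most of them have their whole coding sequence in a single exon and lie in tandem clusters. Class I receptors (families OR51, OR52 and OR56) resemble those of fish and in human lie together on the short arm of chromosome 11, while all other families belong to class II.

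The cells were HUDEP-2, an immortalised human erythroid precursor line. One group was not differentiated and not treated, and the other 3 groups were differentiated in the presence of the vehicle DMSO, a DNMT1 inhibitor or an EED inhibitor, with 1 library per group. The compounds were given in 0.1% DMSO from the expansion phase on, including 4 days of growth under differentiation and then 2 days of maturation, and doses and compound names are not given in the sources used here. Levels given as a series of 4 follow the order non-differentiated, DMSO, DNMT1 inhibitor, EED inhibitor. DNMT1 copies CpG methylation onto newly made DNA, and EED is part of a Polycomb repressive complex, which methylates a lysine of histone H3.

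A library's mean coverage over its listed CpGs lay between 27.2 and 29.7 reads, and member CpGs had 27.2, 28.9, 30.2 and 31.0 reads in the same order of libraries. With 1 library per group there is no spread between replicates, so intervals cover counting error only and a test compares the reads of 2 libraries, not the conditions. Reads of neighbouring CpGs can come from 1 molecule and carry no molecular identifiers, so these intervals may be too narrow for whole genes. Promoters of 5 of 8 erythroid marker genes were below 35% in DMSO (KLF1 was at 2.12%, for example), those of SLC4A1, ALAS2 and AHSP were above it, those of 6 genes of other blood lineages ranged from 24.0% to 78.2%, and that of OMP, the marker of mature olfactory neurons, was at 82.6%.

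The sequence before the transcript start is shown for the 2 members with the highest and the 2 with the lowest DMSO level around the start, because the members with dense enough CpGs there reached both ends of the scale. They were chosen among the 32 members with at least 3 shared CpGs from 250 bases before to 50 bases after the start. Each line gives the 250 bases before the start from hg38, read 5′ to 3′ on the gene's strand, with CpGs in capitals. OR52A1 is at chr11:5154758-5155007 on the minus strand, OR51B2 at chr11:5324298-5324547 on the minus strand, OR52N5 at chr11:5783356-5783605 on the minus strand and OR4X1 at chr11:48263611-48263860 on the plus strand. None of the 4 stretches overlaps an exon of a protein-coding transcript that the annotation marks as canonical. The OR52N5 stretch lies inside the TRIM5 gene model. The start is that of the annotated transcript, and many gene models are short, with a median length of 1082.5 bases over members. Where a model holds little beyond the coding sequence, transcription may start elsewhere, so the stretches are not shown to be promoters.
OR52A1: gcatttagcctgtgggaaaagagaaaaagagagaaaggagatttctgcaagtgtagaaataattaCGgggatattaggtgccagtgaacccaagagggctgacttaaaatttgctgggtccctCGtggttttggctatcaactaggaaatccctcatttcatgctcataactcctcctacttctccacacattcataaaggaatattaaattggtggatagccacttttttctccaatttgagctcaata
OR51B2: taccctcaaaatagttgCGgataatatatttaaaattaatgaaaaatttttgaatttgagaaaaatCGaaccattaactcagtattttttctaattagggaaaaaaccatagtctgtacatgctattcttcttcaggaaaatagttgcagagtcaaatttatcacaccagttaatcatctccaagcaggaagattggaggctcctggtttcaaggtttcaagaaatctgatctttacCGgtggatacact
OR52N5: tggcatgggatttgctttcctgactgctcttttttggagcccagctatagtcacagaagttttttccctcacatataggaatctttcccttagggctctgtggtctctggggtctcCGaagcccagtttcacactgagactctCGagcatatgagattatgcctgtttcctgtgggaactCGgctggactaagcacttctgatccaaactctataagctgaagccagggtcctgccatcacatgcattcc
OR4X1: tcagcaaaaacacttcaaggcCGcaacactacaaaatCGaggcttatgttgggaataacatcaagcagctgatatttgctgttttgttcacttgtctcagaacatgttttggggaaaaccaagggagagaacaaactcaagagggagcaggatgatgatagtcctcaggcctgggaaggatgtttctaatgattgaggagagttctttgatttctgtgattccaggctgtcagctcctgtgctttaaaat

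Each of these windows held 3 shared CpGs, and for OR52A1 and OR4X1 the third lies in the 50 bases after the start, which are not printed. At OR52A1 the window was 91.7% methylated in non-differentiated cells, 96.4% in DMSO, 23.6% under the DNMT1 inhibitor and 91.9% under the EED inhibitor. OR51B2, which lies inside the long OR51B5 gene model, was at 94.5%, 91.8%, 31.1% and 93.6%. Both were high in the 3 libraries without the DNMT1 inhibitor, and the 95% Wilson interval of OR52A1 with that inhibitor was 15.3% to 34.6% on 72 reads. At OR52N5 no methylated read was seen among 73, 93 and 90 reads in the non-differentiated, DMSO and DNMT1 inhibitor libraries, which allows a level of up to 4.11%, 3.23% and 3.33% (3 counts of the total), and 1 of 83 reads was methylated with the EED inhibitor. The whole region of OR52N5 was at 49.7% in DMSO, with 20 of its 61 CpGs at 20% or less and 18 at 80% or more. Its start was picked for its low level, so the contrast with the whole region was set by that choice. OR4X1 had 7.02%, 3.75%, 0% of 77 reads (allowing up to 3.90%) and 5.41% around its start, and 22.7% over its whole region in DMSO.

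Over all 9039 distinct member CpGs, methylated reads made up 49.4% of reads in non-differentiated cells, 48.4% in DMSO, 11.2% under the DNMT1 inhibitor and 46.8% under the EED inhibitor. CpGs of chromosome 11 outside receptor genes had 60.3%, 58.9%, 15.1% and 57.9%. The pooled differences of the members were -1.06 points for DMSO minus non-differentiated (95% interval -1.33 to -0.783), -37.2 points for the DNMT1 inhibitor minus DMSO (-37.4 to -37.0) and -1.58 points for the EED inhibitor minus DMSO (-1.85 to -1.32). Receptor genes of chromosome 11 were thus partly methylated in these erythroid cells, lower than the rest of their chromosome, and lost most of that methylation with 1 of the inhibitors.

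Gene by gene, the median level of the 155 tested members was 43.6% in non-differentiated cells, 43.2% in DMSO, 8.95% under the DNMT1 inhibitor and 41.5% under the EED inhibitor. In DMSO the genes ranged from 14.9% to 93.3%, with quartiles at 35.2% and 51.7%. All other protein-coding genes, without receptor genes, had a DMSO median of 69.0%, and 200 tested olfactory receptor genes of other chromosomes had 50.2%. The 57 other protein-coding genes inside the receptor clusters of chromosome 11 had a median of 55.8%. Some of their gene models, such as those of MMP26 and TRIM5, hold members, and some overlap each other. This set thus shares CpGs with the members. Counting error was small beside this spread, since the median half-width of a gene's 95% interval in DMSO was 2.77 points and the SD over genes was 14.9 points.

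Within most genes CpGs of very different levels stood side by side. Of member CpGs, 30.04% were at 20% or less in DMSO, 39.4% in between and 30.6% at 80% or more, against 21.7%, 31.6% and 46.6% of all shared CpGs. In 147 of the 155 tested members CpGs of both ends were present. The SD of single CpG levels within a gene had a median of 33.2 points. The SD of 14.9 points between genes is of levels that each average many CpGs, so it is an unlike measure. OR51E2, a receptor also expressed in prostate and known to respond to short-chain fatty acids, shows this: 41 of its 151 CpGs were at 20% or less and 47 at 80% or more, and its level was 48.7%, 48.3%, 9.67% and 49.6%. It and its neighbour OR51E1 (48.6%, 47.7%, 9.57% and 46.7%) were chosen for their known expression outside the nose and not by the rule for named genes.

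**Figure D1:**
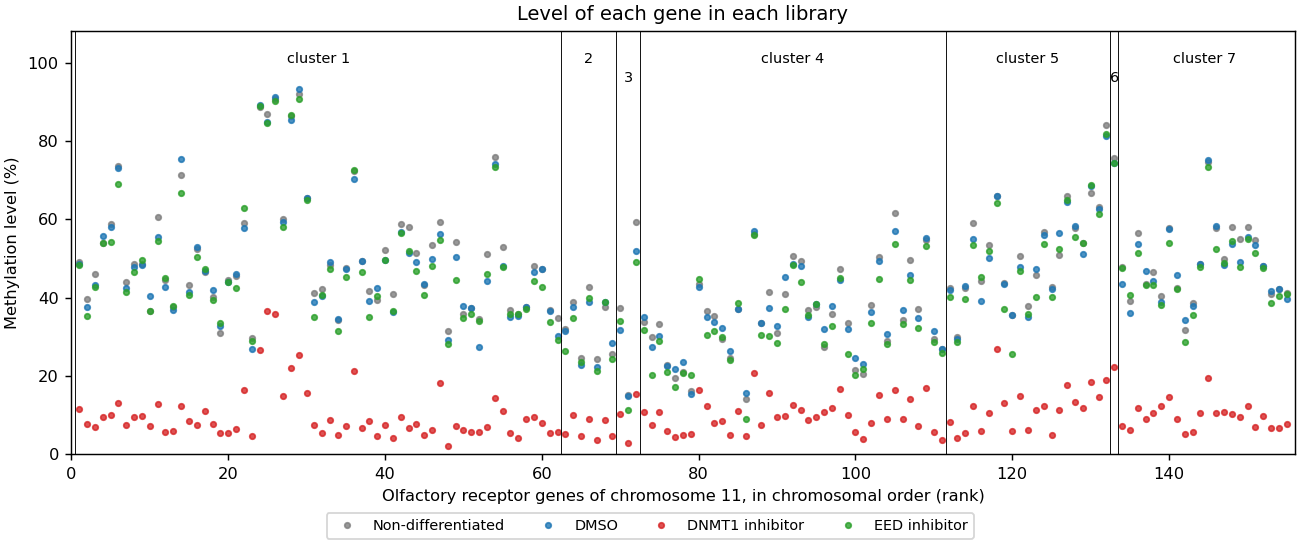
Methylation level in percent (vertical axis) of the 155 tested receptor genes in chromosomal order (horizontal axis, rank), with 1 point per library and lines between clusters. The points of non-differentiated, DMSO and EED inhibitor libraries lie close together in each gene, the DNMT1 inhibitor points lie below them in every gene, and 5 genes of cluster 1 stand at 84.8% or more in DMSO.

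The members fell into 7 clusters when a gap of over 1 Mb between neighbouring genes started a new one. Cluster 1 (chr11:4367263-7941708) held 67 members, 55 of them class I, and its 62 tested genes had a median DMSO level of 47.0%. Clusters 2 (chr11:48216810-48489722, 7 members) and 3 (chr11:49952391-50033794, 3 members) lie on the short arm near the centromere and had medians of 31.4% and 31.6%. Cluster 4 (chr11:54603069-56989843), on the other side of the centromere, held 51 members, and the 39 tested had a median of 34.7%. These 3 clusters around the centromere had the lowest medians in each of the 3 libraries without the DNMT1 inhibitor.

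Cluster 5 (chr11:58023881-59713845, 21 members) had a median DMSO level of 50.1% and cluster 7 (chr11:123753580-124582942, 22 members) had 47.4%. OR2AT4 alone made up cluster 6 and was at 75.7%, 74.3%, 22.4% and 74.3%. With a gap of 500 kb in place of 1 Mb, cluster 5 split into groups with medians of 43.5% (13 genes) and 60.5% (8 genes), and cluster 1 into 48.0% (54 genes) and 37.2% (8 genes), so medians also differed within clusters. Clusters 1, 5 and 7 as set by 1 Mb lay within 4 points of each other in their medians, and their ranges over genes overlapped with those of all other clusters. Cluster 4 ranged from 15.4% to 57.1% in DMSO and cluster 1 from 26.9% to 93.3%. Cluster medians of coverage lay between 27.8 and 30.1 reads. Over the 155 tested members the DMSO level and mean coverage had r = -0.17 and rho = -0.24, and a part of coverage in the levels was not tested.

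**Figure D2:**
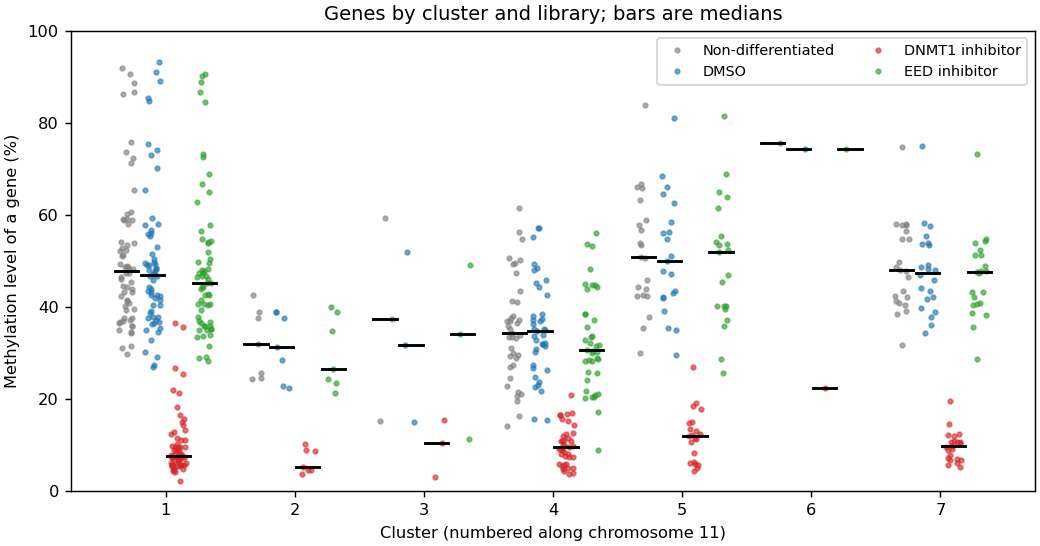
Methylation level in percent of each tested receptor gene by cluster (horizontal axis) and library (colour), with a bar at the median. Median levels in DMSO are 31.4% to 34.7% in clusters 2, 3 and 4 and 47.0% to 50.1% in clusters 1, 5 and 7, with wide overlap of single genes.

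The highest levels in DMSO were those of OR51B6, OR51V1, OR52A5, OR51B2 and OR52A1, all class I receptors of cluster 1 on either side of the left-out interval. OR51B6 was at 92.1% in non-differentiated cells, 93.3% in DMSO, 25.5% under the DNMT1 inhibitor and 90.7% under the EED inhibitor. OR51V1 had 90.6%, 91.2%, 35.7% and 90.2%. The start of OR51V1 and most of its body lie inside the left-out interval, so its 22 CpGs come from the rest of its region. OR52A5 had 88.7%, 89.1%, 26.7% and 89.0%. OR51B2 and OR52A1, whose start sequences are printed above, had 85.4% and 84.8% in DMSO and 21.97% and 36.5% with the DNMT1 inhibitor. In all 5 the 3 libraries without the DNMT1 inhibitor lay within 3 points of each other.

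The 6 tested members of cluster 1 within 100 kb of the left-out interval, a group set after these values were seen and without OR51B5, had a median of 87.2% in DMSO, and the other 55 had 44.3%. The sixth, OR51M1, was at 65.3% in DMSO, below the highest of the other 55 (75.5%), so the groups overlapped. OR51B5 itself has a gene model of 202 kb that holds 7 other members, and its 1130 CpGs gave 60.2%, 59.3%, 14.9% and 57.9%. OR51B4 lies wholly in the left-out interval and is not analysed here.

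The lowest levels in DMSO were those of OR4C12, OR4C16, OR5L1, OR4A15 and OR4C3, class II receptors of clusters 2, 3 and 4. OR4C12 was at 15.1%, 14.9%, 2.97% and 11.2%. OR4C16 had 16.2%, 15.4%, 5.28% and 20.3%. OR5L1 had 14.0%, 15.7%, 4.66% and 8.96%. In OR4C16 the EED inhibitor library was the highest of the 4, while in OR4C12 and OR5L1 it lay below the other libraries without the DNMT1 inhibitor. Of the 10 lowest members in DMSO, 7 lie in cluster 4 and 7 belong to family OR4, whose 26 genes had a median of 33.0%.

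By class, the 54 tested class I genes had a median of 48.0% in DMSO and the 101 class II genes 39.1%. The 8 tested class II genes of cluster 1 had 37.2%. The 54 class I genes and these 8 are the same genes as the groups into which the 500 kb gap split cluster 1. The class contrast in cluster 1 is thus not a separate observation. Among families, OR52 had the highest median of those with more than 10 tested genes (49.7% over 27 genes), followed by OR10 (46.9% over 14), OR51 (46.8% over 21), OR8 (44.4% over 17), OR5 (37.1% over 29) and OR4. Class, family and cluster coincide to a large extent on this chromosome, so their parts in these levels cannot be told apart.

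By medians over members, gene bodies lay close to the sequence around them in DMSO. The median level was 42.0% in the 2 kb before the gene (150 members), 45.4% in the body (155) and 43.5% in the 2 kb after it (151). It was 43.9% in CpGs 2 to 50 kb outside that lie in no member region (159). In 65 of 146 members with values for all 3 parts, the 2 kb before the gene exceeded the body. Across 148 members the DMSO level and that of the surroundings had Pearson's r = 0.70 and Spearman's rho = 0.59, where neighbouring genes share surroundings, so the points are not independent. Within clusters these were r = 0.69 and rho = 0.45 in cluster 1 (56 genes), 0.40 and 0.43 in cluster 4 (39), 0.66 and 0.52 in cluster 5 (20), 0.44 and 0.18 in cluster 7 (22) and 0.05 and 0 in cluster 2 (7). Pooled over members by distance from the annotated start, the DMSO level was lowest in the 500 bp before it, at 41.4%. It was between 43.8% and 49.9% in the other bins within 5 kb. In short gene models this start may be that of the coding sequence.

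**Figure D3:**
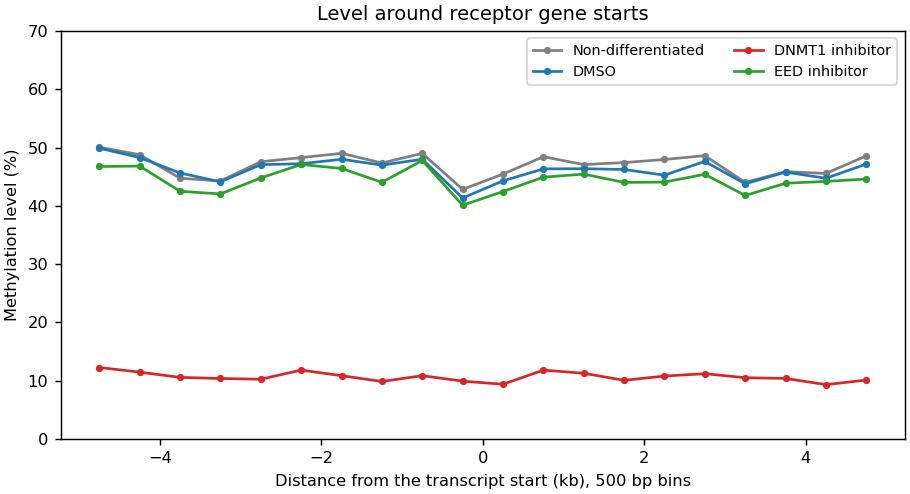
Methylation level in percent, pooled over receptor genes of chromosome 11 in 500 bp bins (vertical axis), by distance from the annotated transcript start in kb (horizontal axis), 1 line per library. The lines of the 3 libraries without the DNMT1 inhibitor dip in the bin before the start (41.4% in DMSO), and the DNMT1 inhibitor line stays between 9.29% and 12.2%.

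The regions of the members were poor in CpGs, with a median of 6.22 per kb against 9.91 over chromosome 11, and a GC content of 37.5% against 41.5%. Members with more CpGs were higher in DMSO (r = 0.42, rho = 0.50 over 155 genes that share 1 library and differ in base composition). The 52 members with the fewest CpGs per kb had a DMSO median of 34.8%, the next 51 had 45.9% and the 52 densest had 48.5%. Neighbouring members of a cluster differed by a median of 10.1 points in DMSO and all pairs of members by 12.6 points. By these medians genes next to each other were only slightly more alike than all pairs, and this varied by cluster. Medians between neighbours were 6.30 points in cluster 7 (21 pairs), 7.76 in cluster 4 (38), 10.1 in cluster 1 (60) and 12.2 in cluster 5 (19). They were 15.5 in cluster 2 (6 pairs) and 26.9 in cluster 3 (2 pairs). The regions of 32 members overlap that of another member, so some neighbours share CpGs.

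For differentiation, the question was whether receptor genes differ between DMSO-treated differentiated cells and non-differentiated ones. The gene levels of the 2 libraries had r = 0.99 over the 155 members. The median difference was -0.717 points, with a range from -7.38 to 5.45, and 101 members, or 65.2%, were lower in DMSO. All other protein-coding genes had a median difference of -1.15 points, with 84.5% lower. At an adjusted p under 0.01 (two-sided Fisher's exact test on reads, Benjamini-Hochberg over 19279 gene regions) with a difference of at least 25 points, 0 of 155 members were called, and 0% of all regions. At an unadjusted p under 0.05, whatever the size, there were 21 members (13.5%), beside 53.5% of all regions. A region with more CpGs has more reads and passes at a smaller difference, and regions were not matched for reads. Such shares without a minimum size, here and below, therefore do not show whether members changed less often. The SD of the differences was 2.42 points over members and 1.56 over other protein-coding genes, counting error included.

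With no minimum difference, 2 members were called lower and 1 higher in DMSO, against 36.5% and 0.913% of all regions, not matched for reads. OR4C45 was at 59.3% in non-differentiated cells and 51.96% in DMSO (-7.38 points, adjusted p = 0.00723, exact test), and at 15.3% and 49.05% with the DNMT1 and EED inhibitors. OR8D1 was at 58.1% and 53.8% (-4.24 points, adjusted p = 0.00847, exact test). OR5A2 was at 50.9% and 56.4% (5.45 points, adjusted p = 0.000484, exact test). The difference of OR4C45 was -0.68 points as an unweighted mean of its CpG levels. None of the 3 was called when the reads of each gene were divided by its CpGs, to allow for CpGs that share molecules. The other members at the ends of the range, OR56B4 (34.6% and 27.3%), OR52B2 (51.1% and 44.3%), OR52E6 (58.1% and 51.5%) and OR4C13 (37.4% and 31.6%) on the lower side and OR8H2 (27.4% and 31.9%), OR5I1 (41.0% and 45.2%), OR51T1 (71.3% and 75.5%) and OR51F1 (36.5% and 40.4%) on the higher side, did not pass. Of these, OR52E6, OR4C13 and OR51F1 had the other sign over the gene body alone, without the flanks (1.03, 0.26 and -0.30 points).

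The DNMT1 inhibitor library was lower than DMSO in all 155 tested members, by a median of 34.96 points. The differences ranged from -67.8 to -10.1 points. Of the 155, 128 were called lower, or 82.6%, beside 96.5% of all regions, and none was called higher. When reads were divided by the number of CpGs of a gene, 99 members were called, beside 85.0% of all regions. With no minimum difference all 155 passed, as did 100% of all regions to 3 digits. With the DNMT1 inhibitor 146 members were at 20% or less and the other 9 were higher, up to 36.5% in OR52A1, whereas in DMSO 146 members lay between 20% and 80%.

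The 27 members that were not called started low. They were at 14.9% to 37.4% in DMSO, and the called ones at 29.1% to 93.3%. A gene below 25% in DMSO cannot be 25 points lower, so for such genes the threshold fixed the outcome. This limit also holds for the counts by cluster. On either side of the 25-point minimum stood OR4C46 (35.1% in DMSO, -24.2 points) and OR2D3 (30.3%, -24.6 points), which were not called, and OR6Q1 (29.4%, -25.2 points) and OR5AR1 (31.4%, -25.7 points), which were. By cluster, 59 of 62 tested genes were called in cluster 1, 4 of 7 in cluster 2, 1 of 3 in cluster 3, 20 of 39 in cluster 4 and all 21, 1 and 22 in clusters 5, 6 and 7. Among genes at 40% to 50% in non-differentiated cells, 97.8% of 45 members and 98.2% of 2156 other genes were called, and at 30% to 40% these were 76.9% of 39 and 74.9% of 658.

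The 5 members with the largest differences were at 75.5% or more in DMSO. OR51B6 had -67.8 points (95% interval -71.7 to -63.4, adjusted p = 1.84e-128, exact test). OR51B2 had -63.4, OR51T1 -63.2, OR52A5 -62.4 and OR10V1 of cluster 5 -62.2 points. OR51T1 was at 71.3%, 75.5%, 12.3% and 66.8%, and OR10V1 at 84.0%, 81.2%, 19.0% and 81.7%. The differences nearest to 0 were those of OR4C16 (-10.1 points), OR5L1 (-11.0), OR4C12 (-11.9), OR4A16 (-16.8) and OR4A15 (-17.3), where little methylation was present in any library. These small differences depended on the CpGs used, in both directions. Without the flanks OR4A16 had -5.55 and OR4A15 -9.62 points, while OR4C16 (-15.6) and OR4C12 (-17.1) moved away from 0. Among other named genes, OR56B4 (-1.56), OR4C3 (-6.34) and OR5B17 (-7.27, no longer called) came near 0. Without CpGs under 20% in all libraries OR4A16 had -38.7 and OR4C12 -35.3 points, but this filter drops CpGs that were low in DMSO too and so favours larger differences.

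**Figure D4:**
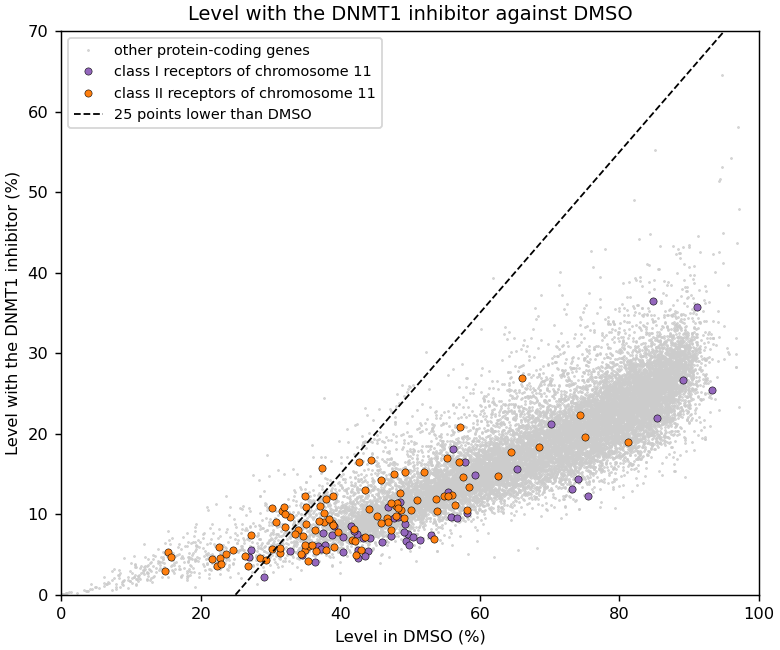
Level with the DNMT1 inhibitor against the level in DMSO, both in percent, for class I and class II receptor genes of chromosome 11 and for the other protein-coding genes (grey). Points below the dashed line are at least 25 points lower than in DMSO, and the receptor genes to its left started at 37.4% or less.

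As a share of the DMSO level, the members retained a median of 20.7% with the DNMT1 inhibitor, with a range from 7.59% to 43.1%. All other protein-coding genes retained a median of 26.6%, receptor genes of other chromosomes 24.4% and the other genes inside the clusters 22.2%. At matched levels in non-differentiated cells the gap varied. Members and other genes retained 20.6% and 21.95% at a level of 30% to 40%, 19.5% and 21.7% at 40% to 50%, and 21.5% and 23.9% at 50% to 60%, which together hold most members. With 15 members or fewer in each range, the shares were 18.4% and 23.1% at 20% to 30%, 22.7% and 27.3% at 70% to 80%, and 28.6% and 29.8% above 80%. Below 20% (24.96% and 23.7%) and at 60% to 70% (25.99% and 25.6%) members retained more than other genes. The lowest share was that of OR56A5, which went from 29.1% in DMSO to 2.21%. OR52N4 was next, with 42.5% and 4.61% (10.8% retained). OR5AN1, a receptor for musk odorants, was at 42.2% and 4.94%.

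The highest shares were retained by OR52A1 (43.1%), OR5D16 (42.0%), OR10Q1 (40.8%) and OR51V1 (39.2%). OR52A1 lies below the left-out interval, and OR51V1 reaches into it from the same side, with most of its body left out. The 6 members within 100 kb of the interval retained a median of 28.6%, against 16.9% in the other 55 genes of cluster 1. The 6 were grouped after their levels were seen, and the DMSO medians of the 2 groups were 87.2% and 44.3%. By medians, other protein-coding genes retained 29.8% above 80% in non-differentiated cells and 21.7% at 40% to 50%. Level and place were thus not separated, and a part of the place beside the interval was not tested. OR10Q1 was at 66.1% in DMSO and 27.0% with the inhibitor and had the densest CpGs of all tested members, 17.7 per kb. Across the 155 members the retained share and CpGs per kb had r = 0.31 and rho = 0.27. OR5D16, at 37.4% and 15.7%, had 6.22 CpGs per kb, no more than the median member.

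The retained share and the level that remained put the clusters with more than 3 tested genes in different orders. Cluster 1 retained a median of 17.5% of its DMSO level, cluster 7 19.4%, cluster 2 20.1%, cluster 5 22.3% and cluster 4 27.2%. The levels that remained were 7.64%, 9.68%, 5.14%, 11.8% and 9.46%. By these medians cluster 4 was lower than cluster 1 in DMSO and higher with the inhibitor, but pooled over reads cluster 4 was lower there too, at 10.6% against 11.7%. The retained shares over pooled reads were 22.3% in cluster 1, 20.5% in cluster 7 and 20.9% in cluster 2. They were 22.3% in cluster 5 and 28.7% in cluster 4. Cluster 1 thus retained the lowest share by gene medians only. Pooled reads give much weight to the 2 long gene models. OR51B5 had 1130 of the 3904 CpGs of cluster 1 (25.1% retained), and OR9Q1 had 1002 of the 2066 of cluster 5 (19.5%). They also enter the pooled shares of class I and class II, and pooled shares without them are not given here. Class I genes retained a median of 17.5% and class II genes 22.5%, but the class II genes of cluster 1 retained 17.8%, close to class I. Pooled over reads, class I genes retained 22.5%, class II genes 23.5% and the class II genes of cluster 1 19.3%. At single CpGs, 5029 of 9039 member CpGs were called lower, or 55.6%, beside 63.6% of all CpGs, and 0 were called higher, beside 4.3e-06%. With the inhibitor 78.9% of member CpGs were at 20% or less, beside 65.4% of all CpGs.

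The EED inhibitor library lay close to DMSO. The median difference over the 155 members was -1.52 points, with a range from -9.91 to 6.67, and 117 members, or 75.5%, were lower. All other protein-coding genes had a median of -0.375 points with 62.5% lower, and receptor genes of other chromosomes had -1.46 with 72.5% lower. With the non-differentiated library as reference, the medians were -2.27 points for members and -1.57 for all other protein-coding genes. The shares lower were then 83.9% and 86.2%, so the order of the shares depended on the reference library. Against DMSO, among genes at 30% to 40% in non-differentiated cells, the medians were -2.32 for members and -1.30 for other genes. They were -1.42 and -1.13 at 40% to 50%, and -1.67 and -0.595 at 50% to 60%. Ranges with 15 members or fewer had -4.08 and 0.499 below 20%, and -2.15 and 0.206 at 20% to 30%. They had -1.13 and -0.214 at 60% to 70%, and -1.30 and -0.148 at 70% to 80%. Above 80% other genes were the lower ones (-0.0824 and -0.298). No member was called in either direction with the 25-point minimum, and 0% of all regions were. Counting intervals of the difference had a median half-width of 3.79 points and lay wholly below 0 in 26 members (16.8%, beside 29% of all regions) and wholly above 0 in 6 (3.87%, beside 11.7%). An unadjusted p under 0.05 was reached by 32 members (20.6%), beside 40.4% of all regions. Members and other regions were not matched for reads in these shares.

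With no minimum difference 9 members were called lower and none higher, beside 16.2% and 5.29% of all regions, not matched for reads. OR5B17 had 35.5% in non-differentiated cells, 35.5% in DMSO, 6.01% under the DNMT1 inhibitor and 25.6% under the EED inhibitor, a difference of -9.91 points (95% interval -14.6 to -5.15, adjusted p = 0.000394, exact test). OR51T1 had -8.69 points (adjusted p = 0.00050, exact test), with its non-differentiated level of 71.3% between the other two. OR5I1 was at 41.0%, 45.2%, 9.81% and 37.1% (-8.12 points, adjusted p = 0.00287, exact test). OR5D16 (-7.32), OR5B12 (-7.09), OR5L1 (-6.73), OR8G1 (-5.91), OR9Q1 (-1.79) and OR51B5 (-1.43) were the others, and the last 2 are the long gene models with over 1000 CpGs each. Over the gene body alone OR5B17 had -5.86, OR5B12 -2.66, OR51T1 -5.34, OR5D16 -12.8 and OR5L1 -10.2 points, so sizes moved by over 1.5 times with the flanks left out. Against non-differentiated cells OR51T1 had -4.56 and OR5I1 -3.92 points. After division of reads by CpGs none of the 9 was called.

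On the higher side, OR56B4 was at 34.6%, 27.3%, 5.58% and 33.9%, 6.67 points above DMSO (adjusted p = 0.0292, exact test). OR1S2 (6.27 points), OR52E2 (4.96), OR4C16 (4.95) and OR6M1 (4.65) followed, and none passed. OR56B4 had -0.68 points against non-differentiated cells and 0.37 points over the gene body alone. In OR56B4 with its flanks the DMSO library was the one that stood below both others. The DMSO library is shared by the differentiation and EED inhibitor comparisons, so a low or high DMSO value enters both with opposite sign.

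Cluster 4 had the lowest EED inhibitor values against DMSO among clusters with more than 10 tested genes. The median difference was -2.69 points there, with 33 of 39 genes lower, against -1.02 in cluster 1, -1.43 in cluster 5 and -1.56 in cluster 7. Against non-differentiated cells, however, the EED inhibitor library differed by a median of -2.26 points in cluster 4, -2.26 in cluster 1, -2.18 in cluster 5 and -2.30 in cluster 7, and by -1.57 in all other protein-coding genes. The median of DMSO minus non-differentiated was 0.04 points in cluster 4 and -0.88 in cluster 1. The place of cluster 4 in the comparison with DMSO thus depended on which library was the reference.

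**Figure D5:**
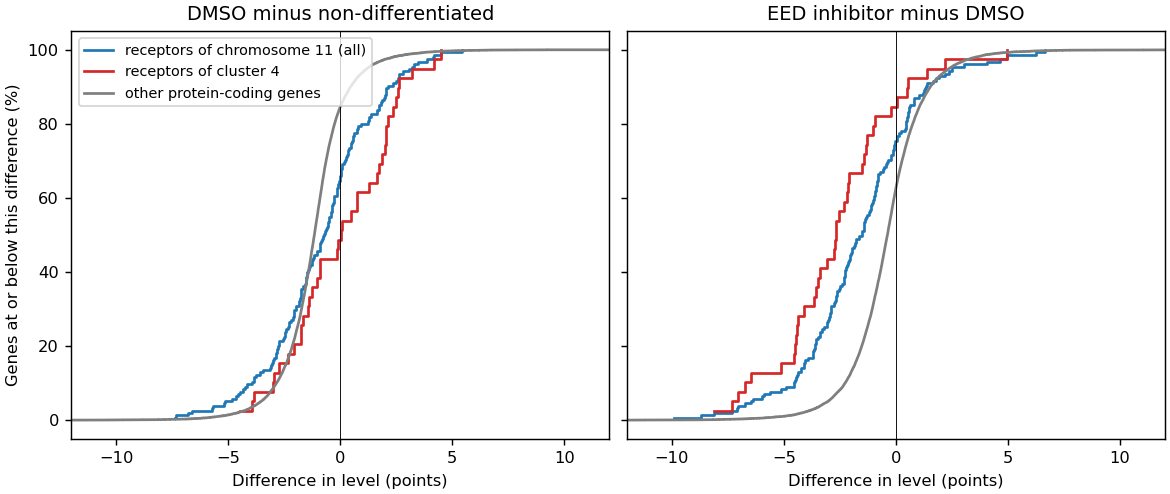
Share of genes in percent at or below each difference in points, for DMSO minus non-differentiated (left) and EED inhibitor minus DMSO (right), for all tested receptor genes of chromosome 11, those of cluster 4 and all other protein-coding genes. On the right the receptor genes lie to the left of other genes (medians -1.52 and -0.375 points) and those of cluster 4 further left (-2.69), while on the left the cluster 4 median is 0.04 points.

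At single CpGs, 3 of 9039 member CpGs were called lower with the EED inhibitor and none higher, where 0.00374% and 0.000623% of all CpGs were called. The first, at chr11:5738187 in a UTR exon of OR56B1, was at 45.5%, 76.7%, 4.00% and 4.35% on 22 to 30 reads (adjusted p = 0.0031, exact test). The second, at chr11:58034518 within the OR9Q1 gene model and outside its coding exon, was at 75.8%, 98.1%, 22.2% and 46.2% on 33 to 54 reads (adjusted p = 0.000398, exact test). The third, at chr11:124395375 in the flank of OR8B3, was at 48.0%, 67.6%, 8.11% and 9.52% on 25 to 42 reads (adjusted p = 0.00376, exact test). In all 3 the DMSO library was the highest of the 4, and at OR56B1 and OR8B3 the EED inhibitor level was near that with the DNMT1 inhibitor. For differentiation 0 of the 9039 CpGs were called, and 0% of all CpGs.

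Of the 17 members that were not tested, 5 lie in cluster 1 and 12 in cluster 4. OR51B4 is inside the left-out interval, and for OR5P2, OR5P3, OR10A6 and OR10A3 in cluster 1 and most of the 12 in cluster 4, such as OR5T1, OR5T2, OR5T3 and OR8K1, no CpG was in the tables used. They are not analysed here.

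Genes that serve odorant detection beside the receptors were compared from a list of 18, which holds the transduction genes GNAL, ADCY3 and CNGA2, the receptor transport genes RTP1 and RTP2 and the regulators LHX2, LDB1, EBF1 and LBR, known from receptor gene choice. Their median level was 58.1% in non-differentiated cells, 58.7% in DMSO, 14.2% under the DNMT1 inhibitor and 57.6% under the EED inhibitor, with single genes in DMSO between 22.9% (LHX2) and 87.6% (ADCY3). The difference of DMSO minus non-differentiated was below 0 in 16 of 18, with a median of -1.09 points, near the 84.2% below 0 among all protein-coding genes. With the DNMT1 inhibitor 17 of 18 were called lower, beside 96.5% of all regions, and none higher. The exception was LHX2, at 22.9% in DMSO and 5.77% with the inhibitor. For differentiation and the EED inhibitor 0 of 18 were called in either direction, as were 0% of all regions.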

How the data were processed

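Genomic DNA of 4 HUDEP-2 samples was sequenced after bisulfite conversion. Per the submitters' processing notes, Trim Galore 0.6.7, cutadapt 4.1, Bismark, Bowtie2 2.1.0, methylKit and hg38 were used. The tables the authors deposited hold, for each CpG, the coverage (a read count) and the percent of C and of T, per the file headers. Strands are merged and CpGs under 10 reads are missing. Methylated reads were recovered from the deposited percent and coverage by rounding, which gave whole numbers to within 0.0005 of the coverage up to 1000 reads. Removal of duplicates and the conversion rate are not given in the sources used here.

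The 23268389 CpGs in all 4 tables on chromosomes 1 to 22 and X were used. A level is methylated over all reads of a region in percent (95% Wilson interval, Newcombe interval for differences). Regions with at least 5 CpGs, and single CpGs, went through Fisher's exact test (two-sided) with Benjamini-Hochberg adjustment over 19279 regions or over all CpGs. Calls required an adjusted p under 0.01 and 25 points. The code, in Python 3.11.15 with numpy 2.4.6, pandas 2.3.3, scipy 1.17.1 and numba 0.67.0, was tested on simulated data. Named genes were the 5 members at either end of the DMSO level and of each difference, with at least 10 CpGs, and the OR51 and OR52 members beside the left-out interval. Others were named for their retained share, their place at the threshold, a call without a minimum, a missing value or a known role, after values were seen. The members and lists were chosen with earlier results of these data known.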

Additional observations from a re-analysis of the deposited data

How the results depend on the processing

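No paired analysis was possible because each group has 1 library. The 3 pooled differences kept their direction under every alternative run. Among single named genes 37 values changed sign, 18 for differentiation and 19 for the EED inhibitor, none of them a call at the 25-point minimum and none for the DNMT1 inhibitor. Over the gene body alone, differentiation went from -6.60 to 1.03 points in OR52E6, from -5.73 to 0.26 in OR4C13 and from 3.86 to -0.30 in OR51F1. Against non-differentiated cells, the EED inhibitor difference went from 6.67 to -0.68 points in OR56B4 and from -4.04 to 1.41 in OR5A2. The pooled DNMT1 inhibitor difference of -37.2 points was -38.1 over gene bodies alone and also -38.1 as an unweighted mean of CpGs, -36.8 with at least 20 reads, -49.8 without CpGs under 20% in all libraries, -36.9 without OR51B5 and OR9Q1, and -38.3 against non-differentiated cells. The filter on CpGs under 20% drops sites that were low in DMSO too, so it favours a larger difference. The number of members called lower was 99 to 155, and 99 after dividing each gene's reads by its CpGs, where 85.0% of all regions were called. For differentiation, the pooled -1.06 points was -0.712 unweighted and -0.708 with at least 20 reads, and with no minimum difference 2 members were lower and 1 higher. For the EED inhibitor, the pooled -1.58 points was -2.64 against non-differentiated cells, and the 0 members called lower became 9 with no minimum and 24 with no minimum against non-differentiated cells, beside 47.8% of all regions. The causes were not tested. Over clusters with at least 3 tested genes, cluster medians in DMSO spanned 30.3 points with a gap of 500 kb (9 clusters) and 18.7 with 1 Mb (6 clusters). Over single named genes, 602 values kept their call, kept their sign where a called gene was not retested, or stayed within 4 points where there was no call. Another 49 moved, the span of cluster medians counted among them, 13 were newly called and 4 were no longer called. A lost call need not mean a smaller difference. OR51V1, with most of its body left out, lost its call over the gene body alone. Its DNMT1 inhibitor difference was -66.3 points there and -55.4 points with the flanks. The alternatives without OR51B5 and OR9Q1 and with no minimum difference were chosen after seeing the data. Reads at a CpG limit single sites, and the lack of replicates limits every comparison.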
